A study of Drosophila melanogaster with 42 samples.

Results

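The short gastrulation gene (sog) of Drosophila encodes a secreted antagonist of BMP signalling, the fly counterpart of vertebrate chordin. Sog binds the BMP ligands Decapentaplegic (Dpp) and Screw together with Twisted gastrulation, carries them towards the dorsal side of the embryo, and releases them when the protease Tolloid cuts it. Its gene is switched on before gastrulation in broad lateral stripes, the future neuroectoderm, by the Dorsal protein gradient and by the maternal DNA-binding protein Zelda, through an enhancer inside the gene and a distant second one known as the shadow enhancer. The locus was taken as the gene, X:15603283-15633434 in Release 6 coordinates (dm6), with 10 kb on each side. Of the 20935 regions that the authors tested, 8 had their midpoint there, 4 inside the gene and 4 beside it. The authors chose the regions on wild-type peaks, per the names of their tables, and the locus was picked with its results in these tables known, so its log2 fold changes are given as a description.

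Open chromatin was profiled with ATAC-seq, in which the transposase Tn5 cuts and tags open DNA, in 42 libraries from whole staged embryos. There were 14 groups of 3 libraries: the wild-type stock OreR (Oregon-R), zld- and gd7 embryos at 1-1.5 h, 1.5-2 h, 2-2.5 h and 2.5-3 h after egg laying, and cic6 embryos at 2-2.5 h and 2.5-3 h only. The name zld- refers to the gene of Zelda; the labels do not say how these embryos were obtained, and since the names of their files refer to RNAi and depletion, some Zelda may remain. The name gd7 refers to gd, a maternal gene needed to form the Dorsal gradient, and cic6 to the gene of the maternal repressor Capicua; the labels give no further allele, driver or parental cross for any group. Embryos were collected for 30 min at 25 °C and sorted by hand, with 400 embryos per library at 1-1.5 h, 100 at 1.5-2 h and 40 in both later windows. Nothing in the labels says that the 3 libraries of a group came from separate collections, so their spread may be technical. In whole embryos, fewer nuclei with an open region and less opening per nucleus cannot be told apart.

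The number of peaks per library ran from 6831 to 58137. The shortest list belonged to the zld- library of replicate 3 at 1-1.5 h, which held 1 peak at the locus, of 481 bp, and the other 41 libraries held 8 to 20 peaks there. Read counts per library were not analysed here, so the depth is unknown, and a missing peak may mean a shallow library as well as less open DNA. The mean total length under peaks was 24.7 Mb in zld- and 25.7 Mb in gd7, against 29.1 Mb in OreR (exact permutation of genotypes within windows, two-sided p = 0.0334 and 0.00665). In cic6 it was 24.5 Mb, against 30.5 Mb in OreR of the same windows (exact permutation p = 0.005, the smallest possible).

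All 8 tested regions were 2114 bp wide, so their mean normalized counts, the authors' measure of signal over all libraries of a table, compare levels per length. The region with the most signal covered the intragenic enhancer (X:15624672-15626785), which the authors' tables call sog_1 or sog_broad_lateral_neurogenic_ectoderm and class as a neuroectoderm enhancer. Its mean normalized count lay above that of 90.9%, 87.4% and 94.2% of all regions in the zld-, gd7 and cic6 tables. The region 4.22 kb inside the gene, counted from the gene end of lower coordinate (X:15606446-15608559), lay above 79.3%, 81.7% and 89.6%, and the region at the end of the neighbouring gene Chsy (X:15592944-15595057), which encodes a chondroitin sulfate synthase, above 83.7%, 84.0% and 85.8%. The other 5 regions were weak, above 8.72% to 33.1% of all regions. They lay 15.3 kb inside the gene (X:15617538-15619651), across the gene end of higher coordinate (X:15631550-15633663), 3.44 kb outside the lower end (X:15598790-15600903), and 5.23 kb (X:15637606-15639719) and 8.37 kb (X:15640744-15642857) outside the upper end. The last one contains the long noncoding RNA gene lncRNA:CR44893, and lncRNA:CR44423 lies between the gene and the region at 5.23 kb without touching a tested region. Which strand, exons and introns these positions fall on was not analysed here.

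The 10 kb limit decides which regions count. The outermost members lay 9.28 kb below and 8.37 kb above the gene, and the nearest regions outside lay 15.15 kb below, inside Chsy (X:15587077-15589190), and 13.5 kb above. The latter is the shadow enhancer (X:15645893-15648006, sog_shadow in the authors' tables). It is described below because of its name, and was added after its values were seen. The test results given for it are therefore a description and lend its values no support. The shadow enhancer is never counted among the 8.

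In the authors' deposited table for zld-, 4 of the 8 regions were called lower than OreR in at least 1 window (27.5% of all tested regions were) and 1 was called higher (21.4% of all). A call is the authors' adjusted p under 0.05. The 4 were the regions 4.22 kb and 15.3 kb inside the gene, sog_1 and the region 5.23 kb outside the upper end. In the authors' deposited table for gd7, 3 regions were called lower (13.2% of all) and 1 higher (12.6% of all), and in that for cic6, 2 were called lower (25.7% of all) and 2 higher (28.4% of all). The shares over all regions are of the same order as most of these counts, so the counts alone do not set the locus apart. The median log2 fold change over all regions lay between -0.02 and 0.04 in the 10 comparisons. Of the 8, the region 15.3 kb inside the gene was the one called lower in all 3 mutants. The share of all regions called lower in all 3 was not computed, so this overlap does not set the region apart. The 3 comparisons of a window share their OreR libraries.

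**Figure D1:**
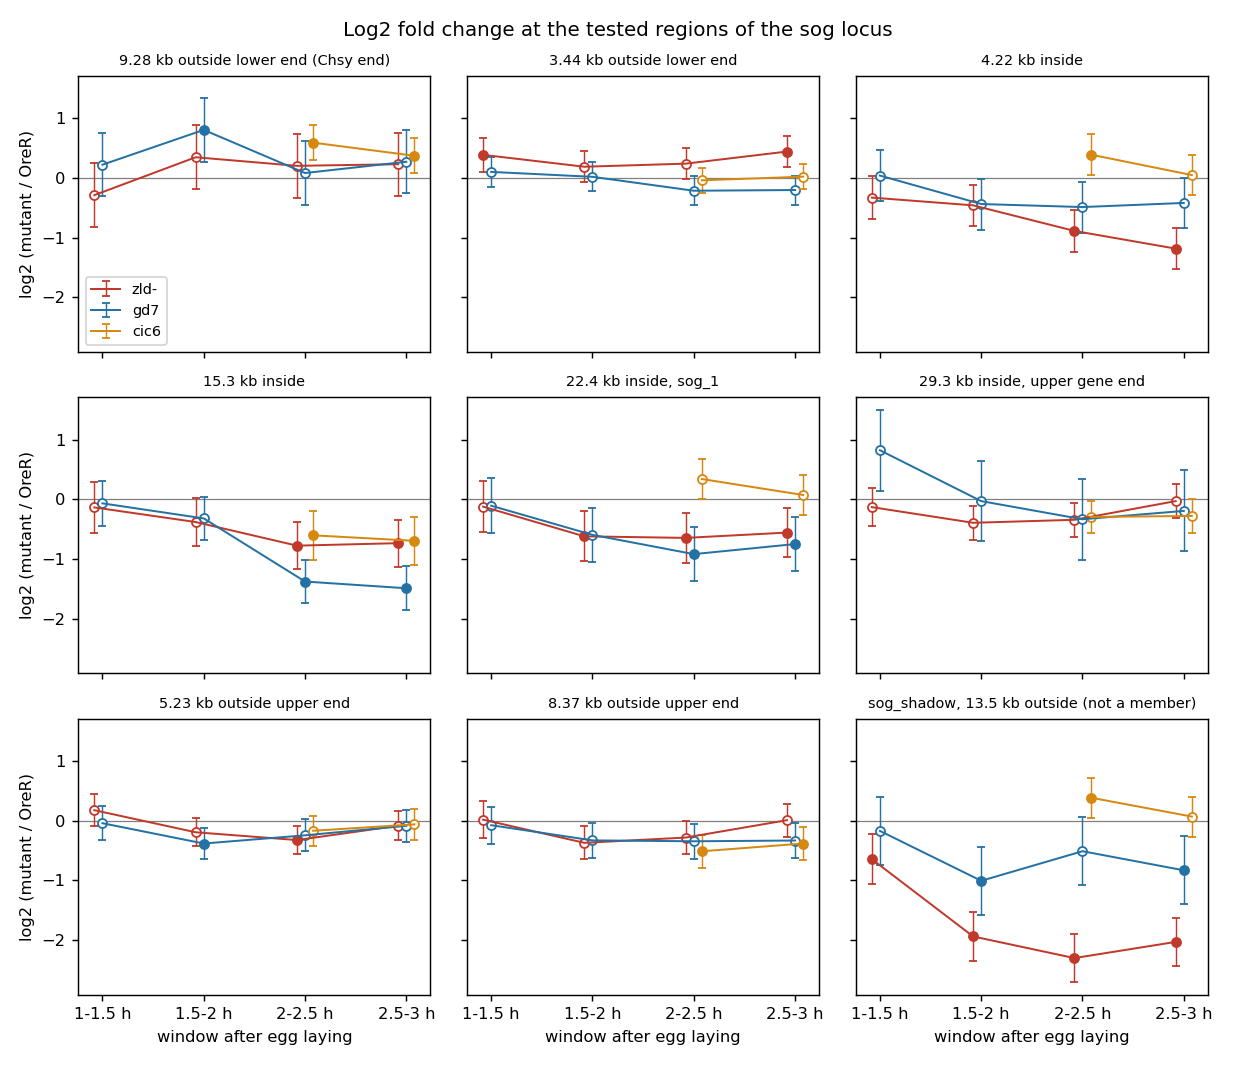
Log2 fold change of mutant over OreR in the authors' deposited tables, by window after egg laying (x axis), for the 8 regions of the sog locus and the shadow enhancer. Points are the authors' estimates, bars their 95% intervals from the authors' standard errors, and filled points have an adjusted p under 0.05; the decline in zld- at 4.22 kb, the drop in gd7 at 15.3 kb and the low zld- values of sog_shadow stand out.

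The zld- calls at the locus varied between windows. Between the first and the last window 1 of the 8 regions changed by the test given below (4.76% of all regions fell and 5.44% rose). Here and below, a region fell or rose between windows when its log2 fold change did. The signal of a mutant itself was not tested between windows. The median log2 fold change of the 8 was -0.13, -0.38, -0.33 and -0.06 from the first to the last window. Per window, the authors' deposited table for zld- called 0 of 8 regions lower at 1-1.5 h (15.6% of all), 1 at 1.5-2 h (7.49% of all), 4 at 2-2.5 h (13.4% of all) and 3 at 2.5-3 h (17.1% of all). It called 1 region higher at 1-1.5 h (10.4% of all), 0 at 1.5-2 h (4.66% of all), 0 at 2-2.5 h (7.82% of all) and 1 at 2.5-3 h (14% of all). At the authors' unadjusted p under 0.05, by DESeq2 per the submitters' processing notes, each of these counts of 0 was also 0. The first of these windows holds the library with the shortest list, and its part in the values of that window was not tested.

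The zld- change of greatest size among the 8 regions was 4.22 kb inside the gene. In OreR, peaks covered 0, 303 and 876 bp of this region at 1-1.5 h, and 1228, 1696 and 2114 bp at 2.5-3 h. In zld- they covered 0, 297 and 361 bp at 1-1.5 h, and 771, 1221 and 1289 bp at 2.5-3 h. The covered lengths of the last window overlapped between the genotypes. In the authors' deposited table the log2 fold change was -0.33 (SE 0.185, adjusted p 0.186) at 1-1.5 h and -0.46 (SE 0.177, adjusted p 0.069) at 1.5-2 h. The second of these was called with the trend removed (-0.57, adjusted p 0.014) and when centred on the median of all regions (-0.50, adjusted p 0.0429). It then fell, again in the authors' deposited table, to -0.89 (SE 0.177, adjusted p 7.86e-06) at 2-2.5 h and -1.18 (SE 0.176, adjusted p 3.85e-10) at 2.5-3 h, the last value being a 2.27-fold lower signal and lower than those of all but 2.17% of the regions. The difference between the last and the first window was -0.86 (SE 0.26, adjusted p 0.0132 by a Wald test with Benjamini-Hochberg adjustment over all regions; 4.76% of all regions fell between these windows by that test and 5.44% rose). From 1.5-2 h to 2.5-3 h the difference was -0.73 (adjusted p 0.0927 by the same test), which misses the threshold; 2.03% of all regions fell between these windows and 0.736% rose.

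Peaks showed where in that region the zld- libraries differed. In OreR the peak of highest −log10 p in the region had its summit 879 to 954 bp above the middle of the region in all 11 libraries with a peak, that is, at its upper edge. A stretch of 332 bp there, X:15608270-15608601, lay under a peak in 11 of 12 OreR libraries, 12 of 12 gd7 libraries and 6 of 6 cic6 libraries, but in 0 of 12 zld- libraries. It was absent in each of the 4 zld- windows, and so without the shortest list too. About 1 kb below it in the same region, the stretch X:15607153-15607666 lay under a peak in 10 of 12 zld- libraries, as in 10 of 12 OreR libraries. This lower stretch had a peak in 5 of 6 cic6 libraries and 6 of 12 gd7 libraries. At 2.5-3 h it had one in 0 of 3 gd7 and 3 of 3 OreR libraries. In zld- libraries the peak of highest −log10 p that overlapped this region had its summit elsewhere, from -2538 to 55 bp relative to the region's middle. The lowest of these summits lay below the region itself, in peaks that extended into it. Over the genome, 27694 stretches of at least 100 bp lay under a peak in at least 10 of the 12 OreR libraries. Of these, 240 (0.867%) had a peak in no zld- library, and 97 (0.35%) also had one in at least 10 gd7 and at least 5 cic6 libraries, the pattern seen in sog. Such stretches were chosen on OreR peaks and after the values had been seen, so these shares describe them and no test was made.

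**Figure D2:**
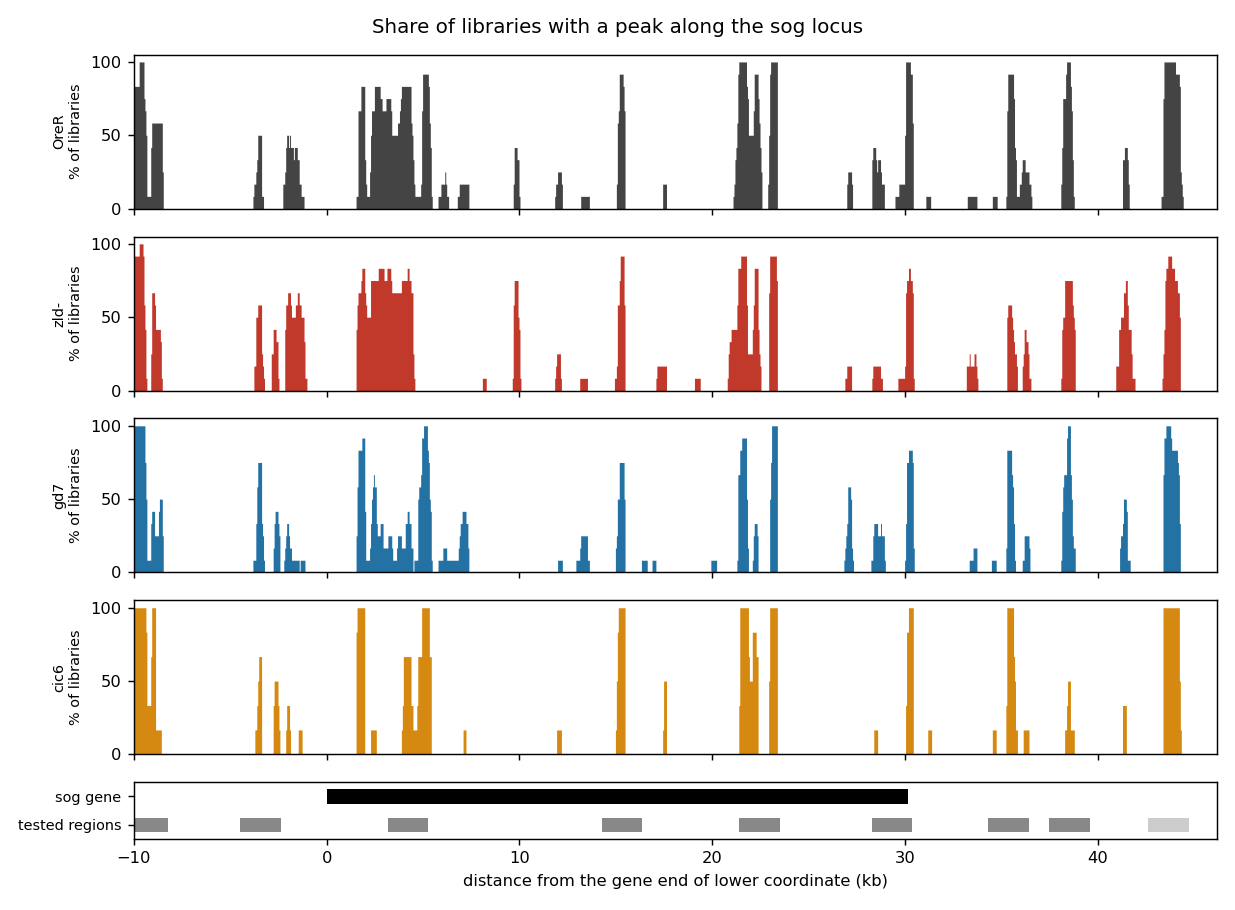
Percent of the libraries of a genotype (y axis, 12 libraries for OreR, zld- and gd7, 6 for cic6) with a peak at each position of the sog locus (x axis, kb from the gene end of lower coordinate), with the gene in black and tested regions in grey (sog_shadow lighter). Near 5 kb the OreR, gd7 and cic6 tracks have a tall block that the zld- track lacks.

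Further inside the gene, the region at 15.3 kb and sog_1 were also lower in zld-, by less. At 15.3 kb the authors' deposited table gave -0.14 (adjusted p 0.705) and -0.38 (adjusted p 0.241) in the first windows, then -0.78 (SE 0.201, adjusted p 0.00112) at 2-2.5 h and -0.74 (SE 0.201, adjusted p 0.00152) at 2.5-3 h. At sog_1 it gave -0.12 (adjusted p 0.734) at 1-1.5 h, and -0.62 (SE 0.214, adjusted p 0.0344), -0.65 (SE 0.213, adjusted p 0.0153) and -0.56 (SE 0.213, adjusted p 0.0316) in the later windows. The last of these calls is lost (adjusted p 0.0757) when the trend of log2 fold change with mean normalized count is removed by a running median. All 9 zld- libraries from 1.5 h on had peaks over 1067 to 1537 bp of sog_1, within the 990 to 1664 bp of OreR in those windows. The change from the first to the last window was -0.60 (SE 0.30, adjusted p 0.213 by the Wald test) at 15.3 kb and -0.44 (SE 0.31, adjusted p 0.444) at sog_1, short of the threshold.

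Of the 8 regions, the one 15.3 kb inside the gene had the lowest gd7 log2 fold change. The authors' deposited table for gd7 called 0 of 8 regions lower at 1-1.5 h (4.01% of all) and 0 higher (4.47% of all). It called 1 lower (7.47% of all) and 1 higher (7.86% of all) at 1.5-2 h, 2 lower (3.45% of all) and 0 higher (2.09% of all) at 2-2.5 h, and 2 lower (8.19% of all) and 0 higher (3.81% of all) at 2.5-3 h. At the unadjusted p of the authors' DESeq2 table, 0 were lower and 1 higher at 1-1.5 h, and the counts of 0 higher in the later windows were also 0. The 2 regions of the later windows were the region at 15.3 kb and sog_1. The region at 4.22 kb was not called in the authors' deposited table for gd7 but was at 1.5-2 h with the trend removed, from -0.44 (adjusted p 0.138) to -0.67 (adjusted p 0.024).

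The log2 fold change at 15.3 kb dropped between the second and the third window. In the authors' deposited table the log2 fold change was -0.07 (adjusted p 0.921) at 1-1.5 h and -0.32 (adjusted p 0.198) at 1.5-2 h, then -1.38 (SE 0.185, adjusted p 1.51e-11) at 2-2.5 h and -1.49 (SE 0.186, adjusted p 1.54e-13) at 2.5-3 h. The last value is a 2.81-fold lower signal, and 0.301% of all regions had as low a value. Last minus first window was -1.42 (SE 0.27, adjusted p 0.000112 by the Wald test; 0.793% of all regions fell by this test and 0.306% rose). From 1.5-2 h the change was -1.17 (SE 0.26, adjusted p 0.00596; 0.253% of all regions fell and 0.196% rose). Both differences remained called with the trend removed. Peaks were still found there. The mean length under peaks was 109, 211, 372 and 431 bp over the 4 windows in gd7, and 331, 365, 373 and 203 bp in OreR. At 2.5-3 h peaks covered 388, 430 and 474 bp of this region in gd7, against 0, 260 and 350 bp in OreR, and at 2-2.5 h 315, 393 and 407 bp against 317, 380 and 421 bp. The covered length was higher than in OreR at 2.5-3 h, without overlap, while the log2 fold change of the region was lower. Depth and background of a library were not analysed here, and their part in peak width was not tested.

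At sog_1 the gd7 values were -0.11 (adjusted p 0.89), -0.60 (SE 0.232, adjusted p 0.0594), -0.92 (SE 0.232, adjusted p 0.00222) and -0.75 (SE 0.232, adjusted p 0.0141) from the first to the last window, in the authors' deposited table. With the trend removed the value at 1.5-2 h became -0.92 (adjusted p 0.00184) and was called. Peaks covered 811 to 1165 bp of sog_1 in the gd7 libraries at 2.5-3 h and 990 to 1623 bp in OreR, so the groups overlapped. Inside sog_1, OreR libraries shared 3 stretches, and gd7 libraries differed at the middle one. The outer stretches, X:15624605-15625114 and X:15626265-15626647, lay under a peak in 11 and 12 of 12 gd7 libraries. The middle one, X:15625464-15625679, did so in 4 of 12 gd7 libraries, against 11 of 12 OreR, 10 of 12 zld- and 5 of 6 cic6 libraries. By window, 0, 2, 1 and 1 of 3 gd7 libraries had a peak at this middle stretch. Of all such stretches in the genome, 2.21% had a peak in at most 4 gd7 libraries.

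**Figure D3:**
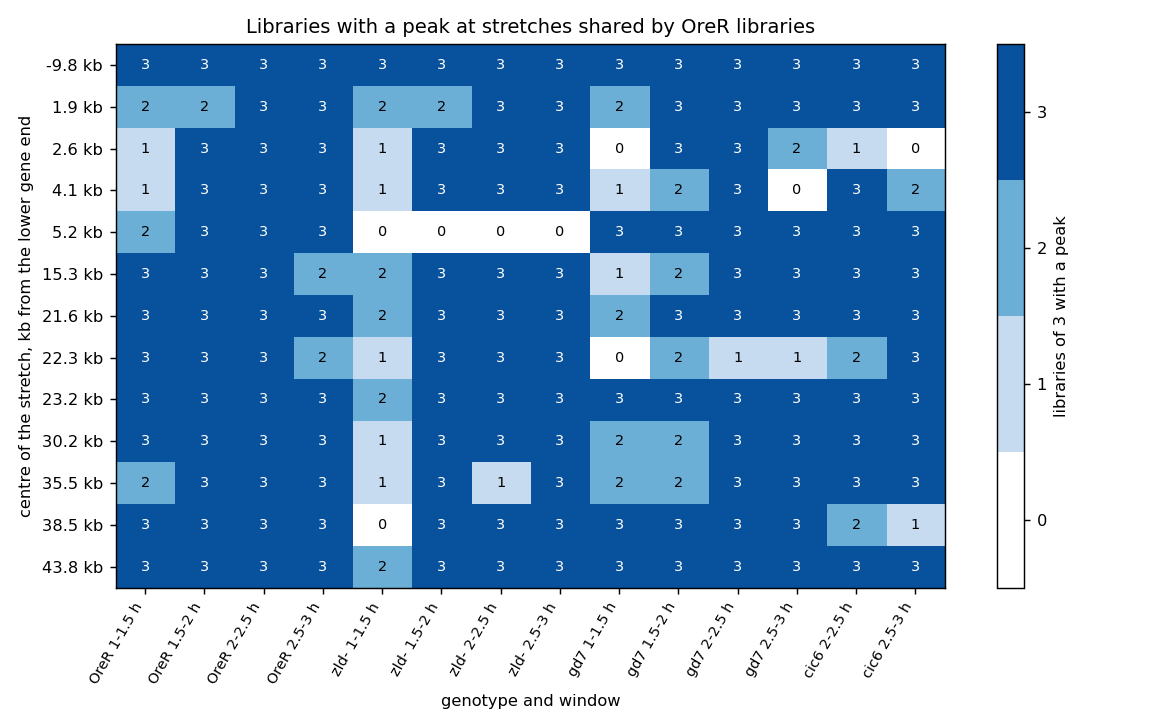
Number of libraries (of 3) with a peak at each of 13 stretches that lie under a peak in at least 10 of the 12 OreR libraries (rows, centre in kb from the lower gene end; the last row is sog_shadow), by genotype and window (columns). The row at 5.2 kb is 0 in all 4 zld- columns, and the row at 22.3 kb, the middle of sog_1, is 0 to 2 in the gd7 columns.

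In cic6, regions of the locus were called in both directions, in numbers of the same order as the shares of all regions. In the authors' deposited table for cic6, 2 of 8 regions were called lower (22.8% of all) and 2 higher (26.2% of all) at 2-2.5 h, and 2 lower (13.7% of all) and 1 higher (14% of all) at 2.5-3 h. Lower in both windows were the region at 15.3 kb, by -0.60 (SE 0.207, adjusted p 0.01) and -0.70 (SE 0.207, adjusted p 0.00497), and the region 8.37 kb outside the upper end, by -0.51 (SE 0.14, adjusted p 0.00106) and -0.38 (SE 0.141, adjusted p 0.0272), in the authors' deposited table. With the trend removed the value at 15.3 kb at 2-2.5 h became -0.49 (adjusted p 0.0634), and those at 8.37 kb -0.28 (adjusted p 0.136) and -0.22 (adjusted p 0.278), so 3 of these 4 calls rest on the deposited scale. A peak at the stretch X:15641626-15641909 in the latter region, which overlaps lncRNA:CR44893, was found in 3 of 6 cic6 libraries and in all 12 OreR libraries. Inside the gene, the stretch X:15605741-15606070, which is outside the tested regions, lay under a peak in 1 of 6 cic6 libraries and in 10 of 12 OreR libraries, among them all 6 of the same windows. Of all such stretches, 4.5% had a peak in at most 2 cic6 libraries, as the second of these did. The share with a peak in at most 3 was not computed, so the first has no share beside it.

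Higher values in cic6 were small. The region at the end of Chsy was called higher at 0.59 (SE 0.15, adjusted p 0.000401) and 0.37 (SE 0.149, adjusted p 0.0471) in the authors' deposited table, and the region at 4.22 kb at 0.39 (SE 0.172, adjusted p 0.0474) at 2-2.5 h. These 3 calls are lost with the trend removed (0.30, adjusted p 0.129; 0.25, adjusted p 0.24; 0.03, adjusted p 0.933). At sog_1 the authors' deposited table gave 0.34 (SE 0.174, adjusted p 0.092) and 0.07 (SE 0.174, adjusted p 0.799), neither of which was called.

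At the gene end of higher coordinate no mutant and window gave a call in the authors' deposited tables; when centred, the zld- value at 1.5-2 h was called (-0.43, adjusted p 0.0268). In the authors' deposited tables the values there were -0.39 to -0.03 in zld-, -0.33 to 0.82 in gd7 and -0.30 and -0.28 in cic6. The gd7 value of 0.82 at 1-1.5 h had an SE of 0.346 and an adjusted p of 0.134 in the authors' deposited table. A stretch across this gene end, X:15633308-15633680, lay under a peak in 12 of 12 OreR, 10 of 12 zld-, 10 of 12 gd7 and 6 of 6 cic6 libraries. Outside the gene, the region 3.44 kb below it was higher in zld-, at 0.39 (SE 0.144, adjusted p 0.0317) at 1-1.5 h and 0.44 (SE 0.129, adjusted p 0.00334) at 2.5-3 h, in the authors' deposited table. The first of these calls is lost with the trend removed (0.36, adjusted p 0.059). Its peaks were scattered: it had one in 6 of 12 OreR, 9 of 12 zld-, 10 of 12 gd7 and 5 of 6 cic6 libraries, and in none of the OreR libraries at 2.5-3 h. The region 5.23 kb above the gene was called lower in zld- at 2-2.5 h (-0.33, SE 0.123, adjusted p 0.0406) and in gd7 at 1.5-2 h (-0.38, SE 0.136, adjusted p 0.037) in the authors' deposited tables, and both calls are lost with the trend removed (adjusted p 0.126 and 0.472). The Chsy region was called higher in gd7 at 1.5-2 h (0.81, SE 0.271, adjusted p 0.0277), again in the authors' deposited table, and this call too is lost with the trend removed (0.55, adjusted p 0.192).

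The shadow enhancer, 13.5 kb outside the gene, had lower zld- values than any of the 8 regions in every window. From 1.5 h on, its peak in OreR lay within the first 0.812% to 2.76% of the list when peaks were ordered by the authors' −log10 p. In zld- a peak was still present in all 9 libraries from 1.5 h on, within the first 16.4% to 51.2% of its list. The lists differ in length, so these positions alone show no change. Peaks covered 891, 906 and 1026 bp of the region at 2.5-3 h in OreR and 879, 882 and 911 bp in zld-, so the width of the peak overlapped between the genotypes. The authors' deposited table gave -0.65 (SE 0.216, adjusted p 0.015) at 1-1.5 h. Later values in the authors' deposited table were -1.94 (SE 0.207, adjusted p 1.21e-18), -2.30 (SE 0.206, adjusted p 1.24e-26) and -2.03 (SE 0.205, adjusted p 3.99e-21). The value at 2-2.5 h is a 4.94-fold lower signal. Last minus first window was -1.39 (SE 0.30, adjusted p 0.000175 by the Wald test). The call at 1-1.5 h is lost with the trend removed (-0.50, adjusted p 0.0836).

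In gd7 the shadow enhancer was lower at 1.5-2 h (-1.01, SE 0.291, adjusted p 0.00822) and at 2.5-3 h (-0.83, SE 0.29, adjusted p 0.0371) in the authors' deposited table. Between them, at 2-2.5 h, the authors' deposited table gave -0.51 (SE 0.29, adjusted p 0.551). In cic6 it was called higher at 2-2.5 h (0.39, SE 0.171, adjusted p 0.0492), a call that turns to -0.17 (adjusted p 0.513) with the trend removed. The value at 2.5-3 h was 0.07 (adjusted p 0.806). The deposited values are those of the authors' deposited table for cic6.

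For differences between mutants, one deposited log2 fold change was subtracted from the other and divided by the combined standard error (a Wald test), with adjustment over all regions. The mutants share the OreR libraries of a window, so the error of these differences is overstated. At 2.5-3 h zld- was lower than gd7 at 4.22 kb by -0.77 (SE 0.28, adjusted p 0.0475; 7.95% of all regions were lower) and higher at 15.3 kb by 0.76 (SE 0.27, adjusted p 0.0452; 5.26% of all were higher). The difference was 0.64 (SE 0.18, adjusted p 0.00448) at the region 3.44 kb outside the gene. None of these 3 calls holds with the trend removed (adjusted p 0.116, 0.135 and 0.0633 in the order given), and the call at 4.22 kb is also lost when values are centred on the median of all regions (adjusted p 0.0502). Of the 8 regions 0 passed at 2-2.5 h by the Wald test (6.51% of all regions were lower and 2.13% higher), and 2 had an unadjusted p under 0.05. Zld- minus gd7 at the shadow enhancer was -1.79 (SE 0.36, adjusted p 2.23e-05) at 2-2.5 h and -1.20 (SE 0.36, adjusted p 0.00895) at 2.5-3 h, and both remained called with the trend removed (adjusted p 2.14e-05 and 0.0466). At sog_1 it was 0.27 (SE 0.31, adjusted p 0.833) and 0.19 (SE 0.31, adjusted p 0.79); the contrast between these 2 enhancers was not tested itself.

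Against cic6, sog_1 differed from gd7 at 2-2.5 h by 1.26 (SE 0.29, adjusted p 0.000747; 3.89% of all regions were higher and 3.14% lower) and the region at 4.22 kb by 0.88 (SE 0.28, adjusted p 0.0279). With the trend removed neither is called (0.83, adjusted p 0.0899, and 0.57, adjusted p 0.376). By the Wald test 0 regions passed between cic6 and gd7 at 2.5-3 h (3.65% of all were higher and 2.5% lower; 2 of the 8 had an unadjusted p under 0.05), where sog_1 gave 0.82 (SE 0.29, adjusted p 0.0665). Cic6 minus zld- at 4.22 kb was 1.28 (SE 0.25, adjusted p 3.03e-06; 16.6% of all were higher and 11.3% lower) at 2-2.5 h and 1.23 (SE 0.25, adjusted p 8.3e-06; 14.7% of all were higher and 11.8% lower) at 2.5-3 h. It was 0.99 (SE 0.28, adjusted p 0.00234) at sog_1 at 2-2.5 h, and -0.42 (SE 0.17, adjusted p 0.0474) at the region 3.44 kb outside the gene at 2.5-3 h. With the trend removed, both differences at 4.22 kb remained called (0.99, adjusted p 0.000668, and 1.11, adjusted p 9.54e-05). Those at sog_1 (0.55, adjusted p 0.165) and at 3.44 kb (-0.29, adjusted p 0.238) did not, and the latter is also lost with centring (adjusted p 0.0518). At the shadow enhancer cic6 minus zld- was 2.69 (SE 0.27, adjusted p 1.43e-21) and 2.10 (SE 0.27, adjusted p 2.45e-13). Between the cic6 windows 0 regions of the locus passed the Wald test, and 0 had an unadjusted p under 0.05 (0.115% of all regions fell and 0.0334% rose).

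Accessibility of the whole locus was measured as the length under peaks within the gene and 10 kb on each side, 50152 bp, an interval set by the annotation and not by the peaks. In OreR it was 3513, 5857 and 6587 bp in the 3 libraries at 1-1.5 h, 7418, 9126 and 9191 bp at 1.5-2 h, 7581, 8713 and 9580 bp at 2-2.5 h, and 7400, 8238 and 11137 bp at 2.5-3 h. All 9 later libraries lay above the 3 of the first window, and the later windows overlapped each other. The 4 window means, 5319 ± 1606, 8578 ± 1005, 8625 ± 1002 and 8925 ± 1961 bp (SD, n = 3 each), had an SD of 1702 bp (two-sided exact permutation test, p = 0.0373). That p rises to 0.124 to 0.21 when any 1 replicate is left out, and to 0.0706 (SD 1449 bp) when the lists are cut to equal length.

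The locus held less peak length in gd7 and cic6. In gd7 the libraries held 3261, 4761 and 6553 bp at 1-1.5 h, 4034, 6521 and 7050 bp at 1.5-2 h, 6637, 6801 and 8329 bp at 2-2.5 h, and 5790, 6671 and 6939 bp at 2.5-3 h. The windows 1.5-2 h and 2.5-3 h did not overlap with OreR, and 11 of 12 gd7 libraries lay below the OreR mean of their window. The mean difference was -1750 bp, or -22.3% of OreR (exact permutation of genotypes within windows, two-sided p = 0.00485, adjusted over the 3 mutants 0.0075). In cic6 the libraries held 5209, 5687 and 6568 bp at 2-2.5 h and 4794, 6021 and 6559 bp at 2.5-3 h, all 6 below every OreR library of the same window. The mean difference was -2969 bp, or -33.8% (exact permutation, two-sided p = 0.005, the smallest these 400 permutations can give; adjusted 0.0075). Peak length over the genome was lower too, as given above. Per Mb of all peaks of a library, a measure added after the data had been seen, the gd7 difference was -28.9 bp (exact permutation p = 0.0823) and the cic6 difference -50.0 bp (exact permutation p = 0.025), against OreR means of 267.7 bp over all windows and 287.7 bp over those of cic6. By number of peaks neither differed detectably, at 0.0833 peaks more in gd7 (exact permutation p = 1) and -1.17 in cic6 (exact permutation p = 0.52).

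In zld- the call on the locus as a whole depended on how the lists were handled. The libraries held 481, 1884 and 5426 bp at 1-1.5 h, 8248, 9147 and 9149 bp at 1.5-2 h, 7342, 9462 and 9762 bp at 2-2.5 h, and 8183, 9089 and 10801 bp at 2.5-3 h. Later windows overlapped with OreR. The mean difference was -447 bp (exact permutation within windows, p = 0.496, adjusted 0.496), with 5 of 12 libraries below the OreR mean of their window. It was -183 bp (exact permutation p = 0.769) without the library of the shortest list and 311 bp (exact permutation p = 0.572) without the window 1-1.5 h. With every list cut to its first 6831 peaks by −log10 p, the length of the shortest, it was -1150 bp, against an OreR mean of 2182 bp (exact permutation p = 0.00103), and passed.

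**Figure D4:**
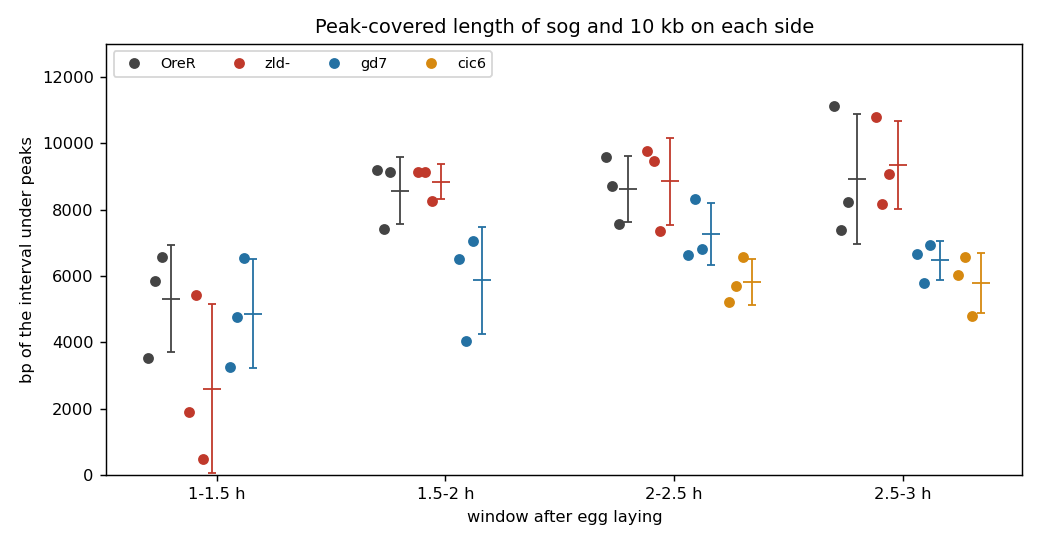
Base pairs of the sog locus (the gene and 10 kb on each side) under peaks of each library (y axis), by window (x axis) and genotype; points are libraries and bars the mean ± SD of 3. All cic6 libraries lie below those of OreR in the same window, and the zld- libraries at 1-1.5 h lie below all later zld- libraries.

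Regions elsewhere with a like pattern were named by the root mean square difference over the 10 deposited log2 fold changes, a description over comparisons that share controls. For sog_1 the closest were a region on chromosome X 1.17 kb from CG32643 (0.174), a region inside heph (0.198), the enhancer vnd_3 of the neural column gene vnd (0.201), a region on chromosome arm 2L whose nearest coding gene is CG17571 (0.202), and a region inside tei (0.21). The median over all regions was 0.607, and the shadow enhancer lay at 0.853, farther from sog_1 than that median. For the shadow enhancer the closest were regions inside term (0.184) and spri (0.325), the early embryonic promoter of the sex determination gene Sxl (0.34), and regions inside PAPLA1 (0.363) and eag (0.365), with a median of 1.28 over all regions.

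The authors class 21 regions as neuroectoderm enhancers, sog_1 and sog_shadow among them. In zld- sog_shadow had the lowest log2 fold change of the 21 in each of the last 3 windows, while sog_1 ranked 17, 12, 15 and 17 from the lowest over the 4 windows. Lower calls were common in the class: 10, 12, 15 and 16 of 21 over these windows in the authors' deposited table for zld-. The shares of all regions were 15.6%, 7.49%, 13.4% and 17.1%. Class medians in zld- were -0.55, -0.64, -0.90 and -0.87. In gd7 sog_1 ranked 10, 4, 1 and 3 and sog_shadow 5, 1, 7 and 2. The class median in gd7 at 2.5-3 h was -0.17, and 4 of 21 were called lower in the authors' deposited table (8.19% of all regions were). In cic6 at 2-2.5 h, 17 of 21 were called higher in the authors' deposited table (26.2% of all), with a median of 0.59. There sog_1 ranked 3 from the lowest and was not called. The running median of all regions in this comparison was 0.48 at the mean normalized count of sog_1 and 0.56 at that of sog_shadow. The class was not recounted with this trend removed.

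Other genes of the BMP pathway, by regions inside them or within 10 kb, had the following calls. Counts are of calls in at least 1 window of the authors' deposited tables, to be read against the shares of all regions given above. The counts here and in the next paragraph were not repeated with the trend removed. A region near 2 genes of a list is counted once: both regions of tld also lie within 10 kb of tok. Beside each count of 0, the count at the authors' unadjusted p under 0.05 (DESeq2) is given. The ligand genes dpp, scw and gbb had 15 regions, of which 1 was called lower and 2 higher in gd7, 6 lower and 0 higher (0 unadjusted) in zld-, and 1 lower and 6 higher in cic6. The extracellular regulators tsg, tld, tok, cv-2, cv and srw, which like Sog act on the ligands outside the cell, had 23 regions: 0 were called lower (0 unadjusted) and 4 higher in gd7, 13 lower and 2 higher in zld-, and 0 lower (0 unadjusted) and 15 higher in cic6. Their median log2 fold change at 2.5-3 h was 0.21 in gd7, -0.29 in zld- and 0.14 in cic6, in the authors' deposited tables. Both regions of tld, which encodes the protease that cuts Sog, and 1 of 4 regions of tsg were called lower in zld-, where 1 region of tsg was also called higher, and none of either gene was called in gd7. The receptor genes tkv, sax, put and wit had 21 regions, with 2 called lower and 3 higher in gd7, 13 lower and 3 higher in zld-, and 3 lower and 11 higher in cic6. The mediators and repressors Mad, Med, Dad, shn and brk had 29, with 2 lower and 10 higher in gd7, 11 lower and 7 higher in zld-, and 3 lower and 18 higher in cic6. At 2.5-3 h the medians of the authors' deposited tables in gd7, zld- and cic6 were 0.05, -0.0037 and 0.06 for the ligands. They were 0.18, -0.11 and 0.16 for the receptors, and 0.19, -0.04 and 0.16 for the mediators and repressors.

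Genes that are active in the dorsal embryo under BMP signalling (zen, pnr, ush, peb, tup, Doc1, Doc2, Doc3 and Ance) had 45 regions. In gd7 0 of them were called lower (1 unadjusted) and 25 were called higher (12.6% of all), with 7 of 13 at ush, in the authors' deposited table. In zld- 29 were called lower (27.5% of all) and 6 higher (21.4% of all), and in cic6 0 lower (0 unadjusted; 25.7% of all) and 29 higher (28.4% of all). Their medians at 2.5-3 h were 0.33 in gd7, -0.06 in zld- and 0.25 in cic6, in the authors' deposited tables. The neuroectoderm genes brk, rho, vn, vnd, ind, sim, ths, pyr and SoxN, which like sog are activated by Dorsal, had 51 regions: 4 were called lower (13.2% of all) and 4 higher (12.6% of all) in gd7. In zld- 23 were called lower (27.5% of all) and 4 higher (21.4% of all), and in cic6 12 lower (25.7% of all) and 25 higher (28.4% of all). The 4 called lower in gd7 were at ths (2), vn (1) and vnd (1). The medians of the 51 at 2.5-3 h were -0.06 in gd7, -0.14 in zld- and 0.0052 in cic6, in the authors' deposited tables.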

How the data were processed

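ATAC-seq peaks were deposited by the authors for each of 42 libraries separately, and a table of the authors' comparison with OreR for each of 3 mutants. The submitters' processing notes name Bowtie2 2.3.5.1, Picard 2.23.8, MACS2 2.2.7.1, DESeq2 and the build dm6; settings, and whether reads were shifted for Tn5: not given in the sources used here. In the deposited peak lists each peak has a score, a fold enrichment (a ratio), a −log10 p-value and a −log10 q-value, at least 1.30 for the latter. In the deposited tables the authors give, per the file headers, a mean normalized count (a signal, fitted over all windows of a table together), a log2 fold change and standard error, the test's score, and p-values raw and adjusted. The adjusted ones matched a Benjamini-Hochberg adjustment done window by window (greatest difference 2.18e-07). The gd7 table lacks a p-value for 7 regions per window. The lists give no read counts, so no interval for counting error was computed; all columns of per-sample values were used or mapped.

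Groups follow the titles and genotype labels. The file names of OreR and gd7 carry other replicate numbers than the titles, so the numbers were not taken to pair libraries. The planned edgeR test and the TMM, size factor and low-count alternatives need counts per library and were not run, because the tables hold means and fold changes. Members, lists and tests were chosen with earlier results of these data known. All regions of the locus are named, with the genes within 10 kb, the genes of the pathway lists and, for each region named after sog, the 5 regions closest over the 10 log2 fold changes; sog_shadow was added after its values were seen. Covered length counts a peak from 1 bp of overlap. Genes came from a RefSeq table of Release 6, which gives no strand, and all listed genes were found. Sequences and motifs were not analysed here. Computations used Python 3.11.15, numpy 2.4.6, pandas 2.3.3 and scipy 1.17.1, and figures matplotlib 3.10.9. The Wald tests between the first and last windows of a mutant were tested on simulated data. These were drawn with the standard errors that the tests use, so real errors were not checked. The Wald tests between mutants, which share OreR libraries, were not tested on simulated data. The alternatives changed the threshold, size, scale, distance, peak selection and libraries.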

Additional observations from a re-analysis of the deposited data

Results flagged for a closer look

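The log2 fold changes of 2 mutants or 2 windows differed by the Wald test at the places below, all with an adjusted p under 0.05 over all regions, from the deposited values. Between the last and the first window the difference was -0.86 in zld- at the region 4.22 kb inside sog, -1.39 in zld- at sog_shadow, and -1.42 in gd7 at the region 15.3 kb inside. Zld- minus gd7 was -1.79 at sog_shadow at 2-2.5 h. At 2.5-3 h it was -1.20 at sog_shadow, 0.64 at the region 3.44 kb outside the lower gene end, -0.77 at 4.22 kb and 0.76 at 15.3 kb. Cic6 minus gd7 at 2-2.5 h was 0.88 at 4.22 kb and 1.26 at sog_1. Cic6 minus zld- at 2-2.5 h was 1.28 at 4.22 kb, 0.99 at sog_1 and 2.69 at sog_shadow, and at 2.5-3 h 1.23 at 4.22 kb, 2.10 at sog_shadow and -0.42 at the region 3.44 kb outside. With the trend removed, the zld- minus gd7 differences of 0.64, -0.77 and 0.76 lost the call. So did those of cic6 minus gd7, and the cic6 minus zld- differences of 0.99 and -0.42. Centring also lost those of -0.77 and -0.42. The shares of all regions are given above, and sog_shadow was added after its values were seen.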

How the results depend on the processing

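In the covered length of the sog locus, the replicate block gave -447 bp in zld- (exact permutation p = 0.595), -1750 bp in gd7 (p = 0.000488) and -2969 bp in cic6 (p = 0.0313), and changed no call. Libraries of 1 number lay on the same side of their group means in 9 of 12 window pairs of zld- with OreR, 9 of 12 of gd7 and 2 of 6 of cic6, and titles and file names disagree on the numbers, so they were not taken as pairs. With lists of equal length the zld- difference was -1150 bp (exact permutation p = 0.00103), past the threshold, and the SD over OreR windows 1449 bp (p = 0.0706). By number of peaks the differences were 0.0833 peaks in gd7 (exact permutation p = 1) and -1.17 in cic6 (p = 0.52), and the SD over OreR windows 0.5 (p = 0.969). Per Mb of all peaks they were 15.6 bp in zld- (exact permutation p = 0.363) and -28.9 bp in gd7 (p = 0.0823), and the SD 24.4 bp (p = 0.387). Without the window 1-1.5 h the zld- difference was 311 bp. Leaving out 1 replicate gave -767 to 115 bp in zld- (115 without zld- replicate 3), -2111 to -1503 bp in gd7, -3401 to -2177 bp in cic6, and 948 to 2154 bp for the SD over OreR windows, which then passed in no case. The per-Mb scale and the settings without a window or the shortest list were chosen after seeing the data. The cause was not tested.

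Counts of called regions fell with stricter rules, and the count lower in zld- rose to 6 of 8 with centring (27.5%). Shares of all regions called by the same rule are in brackets. At an adjusted p under 0.01, 2 were lower in zld- (20.5%), 2 lower (7.8%) and 0 higher (5.57%) in gd7, and 1 higher in cic6 (22%). With a log2 fold change of at least 1 in size, 1 was lower (4.85%) and 0 higher (0.645%) in zld-, 1 lower (1.28%) and 0 higher (1.12%) in gd7, and 0 lower (1.08%) and 0 higher (0.845%) in cic6. With the trend removed, 3 were lower in zld- (26.1%), 0 higher in gd7 (9.36%), and 1 lower (14.2%) and 0 higher (17%) in cic6. The regions within 2 kb of sog were the 4 inside it, counted at an adjusted p under 0.05. Of these, 3 were lower (27.5%) and 0 higher (21.4%) in zld-, and 2 lower (13.2%) and 0 higher (12.6%) in gd7. In cic6 1 was lower (25.7%) and 1 higher (28.4%). For tests of differences, the second against the last window left 0 regions in zld-. Trend removal left 0 for zld- minus gd7 at 2.5-3 h and for cic6 minus gd7 at 2-2.5 h, and 1 each for cic6 minus zld- at 2-2.5 h and 2.5-3 h, the latter also with centring. The cic6 value of sog_shadow at 2-2.5 h turned to -0.17. Of 30 calls of single regions, 30 held when centred, 17 with the trend removed and 15 at 0.01. These counts include the calls of sog_shadow, which is not among the 8 regions. Centring added 3 calls, all zld- lower at 1.5-2 h: the region at 4.22 kb, the upper gene end and the region 8.37 kb outside it (-0.41, adjusted p 0.0322). Trend removal added 3, at 4.22 kb in zld- and gd7 and at sog_1 in gd7, all lower at 1.5-2 h. The TMM, size factor and low-count alternatives were not run, since they need read counts, whose absence also leaves the depth behind each peak unknown.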
